A study of Rattus norvegicus with 4 samples.

Results

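The genes analysed here encode the subunits of the proteasome together with its assembly chaperones, activators and regulator. They were taken from the deposited table of INS-1 832/13 cells by name: protein-coding genes whose symbol starts with Psma, Psmb, Psmc, Psmd, Psme, Psmf or Psmg and a digit, without the immunoproteasome genes Psmb8, Psmb9 and Psmb10. This gave 44 of the 15172 listed genes. Of these, 14 are core particle genes (Psma and Psmb), 21 match the regulatory particle names (Psmc and Psmd) and 9 belong to neither (Psme, Psmf and Psmg). The symbol of Psmc3ip fits the pattern, but the gene encodes a meiotic recombination factor and no proteasome subunit, and it was counted with the Psmc genes as the rule has it. Psmd5, Psmd9 and Psmd10 are assembly chaperones that carry Psmd names.

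INS-1 832/13 is a clone of a rat insulinoma line that secretes insulin in response to glucose. The cells were transfected for 36 h with a TBK1 siGENOME SMARTpool, a pool of siRNAs against the kinase gene Tbk1 (siTbk1), or with a non-targeting negative control siRNA (siScramble), with DharmaFECT reagent in both groups. The mRNA of 2 samples per group was sequenced as stranded libraries, and the samples are numbered 2 and 3 in each group. The comparison asks how transient silencing of Tbk1 changes the mRNA of the proteasome genes in 1 cell line. Nothing in the labels says that the samples came from separate cultures, so p-values measure only the spread between these samples.

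Total estimated counts lay between 38428926 and 47759013 per sample. All levels below are CPM (counts rescaled to a library total of 1000000 after correction by the TMM factor), given for siScramble replicates 2 and 3 and then for siTbk1 replicates 2 and 3. Tbk1 was at 53.7 and 52.5 CPM in the siScramble samples and at 11.8 and 13.3 CPM in the siTbk1 samples, which matches the labels (log2 fold change −2.08, standard error 0.076). Of 8 β-cell markers, 7 were listed, and 4 passed as lower (57.1%) and 2 as higher (28.6%) in siTbk1-treated cells. Over all genes tested, 24.8% passed as lower and 24.4% as higher. The higher markers were Iapp and Nkx6-1 (log2 fold changes 0.38 and 0.23), and Pdx1 and Slc2a2 were among the lower (−0.24 and −0.37). Ins1, at 6244 to 11092 CPM, and Ins2 were lower past a fold change of 1.5 (log2 fold changes −0.64 and −0.67). The part of these changes in the proteasome results was not tested. Of 12 markers of other islet, exocrine, duct, blood, endothelial and stromal cells, 10 were not listed, Cd68 was at 0.185 to 0.340 CPM, and Gcg, the glucagon gene, was listed at 815 to 1389 CPM and was lower in siTbk1-treated cells (log2 fold change −0.68). In RNA from whole cultures, fewer cells of a type and less RNA per cell cannot be told apart.

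The proteasome is a barrel-shaped protease that degrades proteins tagged with ubiquitin. Its core particle is a stack of rings of α and β subunits, and the proteolytic sites belong to the β subunits Psmb5 (chymotrypsin-like), Psmb6 (caspase-like) and Psmb7 (trypsin-like). The regulatory particle caps the core: its base holds a ring of ATPases that unfold the substrate and its lid removes the ubiquitin. Nfe2l1, a transcription factor that is cleaved into its active form when proteasome capacity is short, raises the subunit genes together through antioxidant response elements in their promoters, and the pathway is known to matter in β-cells, which fold and clear large amounts of secretory protein.

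The promoters of the catalytic subunit genes and of Psma3 are shown because the catalytic subunits moved in opposite directions and Psma3 had the largest higher change. Each runs from 250 bases before to 50 bases after the start of the gene, 5′ to 3′ on the strand of the gene, from RefSeq (build GRCr8). Capitals mark matches on either strand to the core of the antioxidant response element (TGACNNNGC), to the CCAAT box, to a motif of ETS factors (CCGGAAG) or to the TATA box (TATAAA), and matches of different motifs share no bases in these 4 promoters. The regions are chr15:32047330-32047629 on the minus strand for Psmb5, chr10:55737638-55737937 on the plus strand for Psmb6, chr3:42827421-42827720 on the minus strand for Psmb7 and chr6:95219499-95219798 on the plus strand for Psma3.
Psmb5: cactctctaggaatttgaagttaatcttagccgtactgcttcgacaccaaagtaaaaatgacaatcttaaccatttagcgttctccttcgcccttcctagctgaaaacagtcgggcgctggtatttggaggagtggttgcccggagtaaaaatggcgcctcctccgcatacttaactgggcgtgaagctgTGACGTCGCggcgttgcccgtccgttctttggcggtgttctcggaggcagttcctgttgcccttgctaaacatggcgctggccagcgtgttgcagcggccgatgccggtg
Psmb6: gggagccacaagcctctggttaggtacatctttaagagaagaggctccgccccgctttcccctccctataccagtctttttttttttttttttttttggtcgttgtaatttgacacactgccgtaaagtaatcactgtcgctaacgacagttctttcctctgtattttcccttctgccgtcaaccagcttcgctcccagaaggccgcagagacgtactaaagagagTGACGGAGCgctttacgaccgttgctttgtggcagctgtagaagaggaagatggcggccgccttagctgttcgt
Psmb7: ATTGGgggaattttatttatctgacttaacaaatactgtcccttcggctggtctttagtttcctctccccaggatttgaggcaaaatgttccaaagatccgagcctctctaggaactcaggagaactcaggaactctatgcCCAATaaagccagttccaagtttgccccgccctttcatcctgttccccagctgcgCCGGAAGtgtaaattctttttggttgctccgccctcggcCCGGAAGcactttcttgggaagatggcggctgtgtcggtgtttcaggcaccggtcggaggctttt
Psma3: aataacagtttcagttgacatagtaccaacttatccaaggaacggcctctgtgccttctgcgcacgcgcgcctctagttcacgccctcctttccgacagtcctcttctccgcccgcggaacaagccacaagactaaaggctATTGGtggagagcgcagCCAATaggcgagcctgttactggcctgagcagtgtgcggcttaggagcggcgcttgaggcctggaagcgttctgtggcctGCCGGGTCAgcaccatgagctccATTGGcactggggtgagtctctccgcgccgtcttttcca
The match to TGACNNNGC starts 60 bases before the start of Psmb5, 24 bases before that of Psmb6 and, on the opposite strand, 12 bases before that of Psma3. The Psmb7 window holds the CCAAT box and the ETS motif and no match to TGACNNNGC. In the deposited table, whose coordinates refer to the build rn6, Psmb5 lies at chr15:33259043-33263660, Psmb6 at chr10:57131386-57133638, Psmb7 at chr3:22871105-22952064 and Psma3 at chr6:93423002-93444241.

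All 44 genes passed the filter on low counts. By the quasi-likelihood test of edgeR, with p-values adjusted over the 13953 genes tested (Benjamini-Hochberg), 10 of them were higher and 12 were lower in siTbk1-treated cells at an adjusted p-value under 0.05, and 22 did not pass. Over all genes tested, 24.4% were higher and 24.8% were lower by the same test, beside 22.7% and 27.3% of the proteasome genes. The share of proteasome genes that changed was thus near the background, and the family did not move in one direction: its median log2 fold change was −0.022, beside 0.0071 over all genes tested, with 19 genes above 0 and 25 below. With library size alone in place of TMM factors, 7 passed as higher and 14 as lower, beside 20.2% and 28.6% of all genes tested under that scaling. The groups did not overlap for 35 of the 44 genes, beside 76.6% of all genes tested.

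The changes were small. The genes that passed as higher had log2 fold changes between 0.16 and 0.59, and those that passed as lower had log2 fold changes between −0.71 and −0.19. A fold change of at least 1.5 was reached by Psma3 among the higher and by Psmb6 among the lower genes, beside 4.81% and 6.18% of all genes tested. Psma3 lies at the limit (1.51-fold), and it fell below the limit in several of the alternatives. Counts that are not whole were listed for 12 of the 44 genes, which are called genes with split reads here. Between which entries such reads were divided is not given in the sources used here. Of the 12 genes, 9 have a named copy in RefSeq, as do 19 of the 44, while Psma4, Psmd11 and Psme4 have none. The 12 genes were 7 of the 10 higher, 3 of the 12 lower and 2 of the 22 genes that did not pass. Of all listed genes, 25.8% have split reads. Without the 12 genes, 3 proteasome genes passed as higher and 9 as lower. The part of split reads in the result was not tested beyond leaving these genes out.

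**Figure D1:**
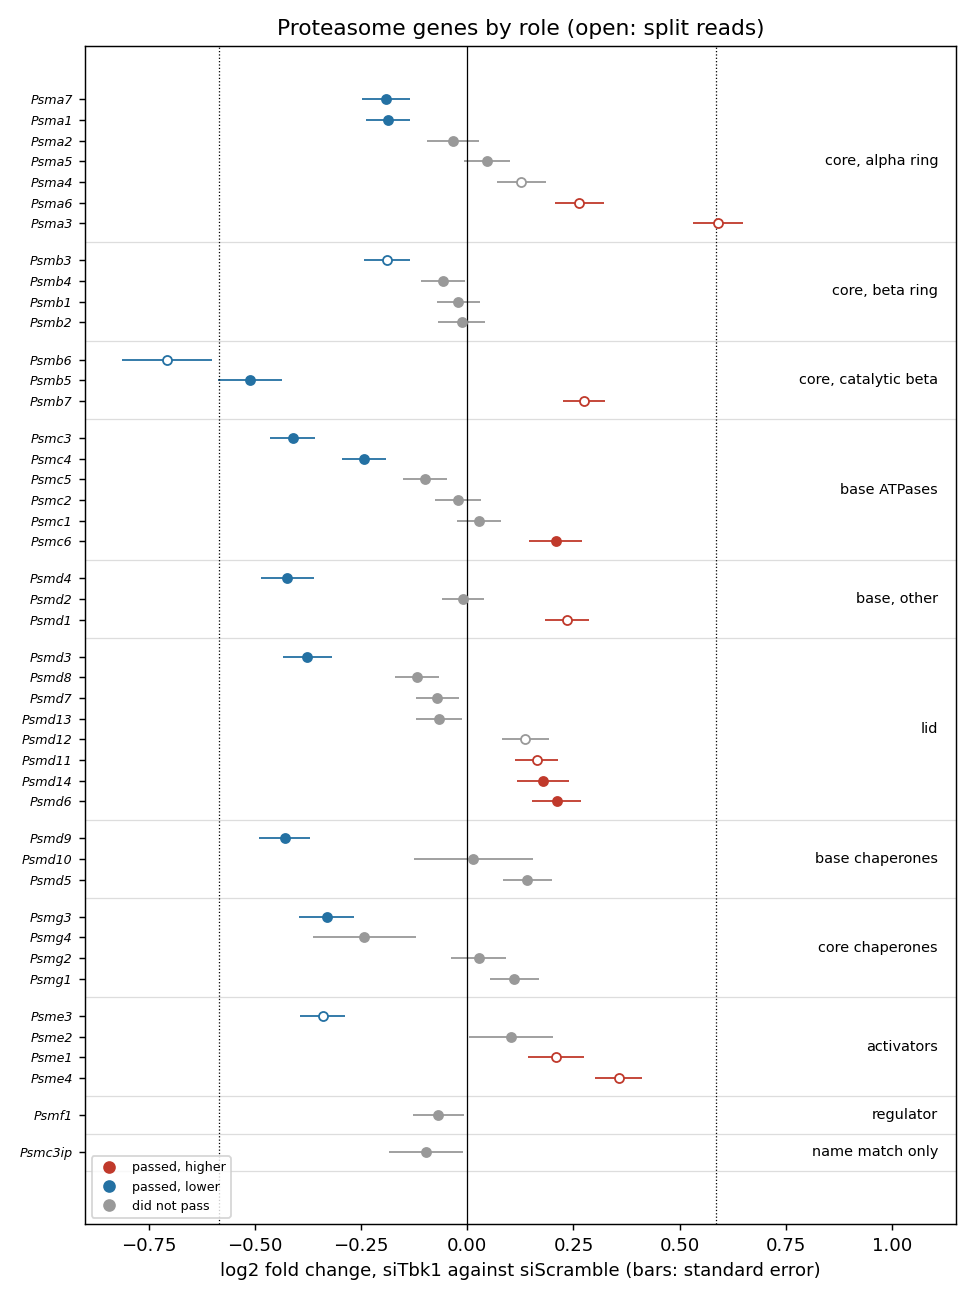
Log2 fold change (siTbk1 against siScramble, bars: standard error) of the 44 proteasome genes grouped by role, with genes that passed as higher in red, as lower in blue and the rest in grey, open circles for genes with split reads and dotted lines at a fold change of 1.5. Most roles hold genes on both sides of 0, from Psmb6 at −0.71 to Psma3 at 0.59.

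The catalytic subunits diverged. Psmb5, which carries the chymotrypsin-like site, was at 96.7 and 102 CPM in siScramble-treated and at 75.6 and 63.8 CPM in siTbk1-treated cells. Both siTbk1 samples lay below both controls (log2 fold change −0.51, standard error 0.076, Benjamini-Hochberg adjusted p = 0.00018 in the edgeR quasi-likelihood test). Psmb5 has no split reads. Psmb7, which carries the trypsin-like site, was at 231 and 227 CPM in siScramble-treated and at 275 and 279 CPM in siTbk1-treated cells. It was higher in both siTbk1 samples (log2 fold change 0.27, standard error 0.050, adjusted p = 0.00074 from the same test). After a correction for gene length the log2 fold change of Psmb7 was 0.16. The ratio of Psmb5 to Psmb7 counts was 0.419 and 0.450 in the controls and 0.275 and 0.229 in siTbk1-treated cells. The fall restates the opposite changes of these genes and is no separate result. Psmb7 has split reads, and its listed span overlaps that of Nek6 on the opposite strand, at 11.0 to 12.2 CPM in the controls and 17.2 to 17.4 CPM in siTbk1-treated cells.

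Psmb6, which carries the caspase-like site, was at 11.9 and 13.9 CPM in the controls and at 8.08 and 7.66 CPM in siTbk1-treated cells, and the groups did not overlap (log2 fold change −0.71, standard error 0.11, Benjamini-Hochberg adjusted p = 0.00019 in the edgeR quasi-likelihood test). Psmb6 has split reads, and far more counts were listed under LOC100360846, which RefSeq names Psmb6l1, a protein-coding gene on chromosome 2. LOC100360846 was at 178 and 179.6 CPM in the controls and at 154 and 137 CPM in siTbk1-treated cells (log2 fold change −0.30, standard error 0.061). Psmb6 held 6.29% and 7.16% of the counts of the pair in the controls and 5.00% and 5.29% in siTbk1-treated cells. With the counts of both genes summed, the levels were 189.5 and 193 CPM in the controls and 162 and 145 CPM in siTbk1-treated cells. The summed gene was lower in siTbk1-treated cells (log2 fold change −0.32, standard error 0.061, adjusted p = 0.00092 from the same test) and did not reach a fold change of 1.5, so the size of the Psmb6 change depends on how the reads of the pair are divided.

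The other β subunits, Psmb1 to Psmb4, are structural members of the inner rings. Psmb3 was the 1 of these 4 that passed, at 191 and 189 CPM in the controls and at 172 and 161 CPM in siTbk1-treated cells (log2 fold change −0.19, Benjamini-Hochberg adjusted p = 0.012 in the edgeR quasi-likelihood test). It has split reads, and both siTbk1 samples were below the controls. Psmb1, Psmb2 and Psmb4 had log2 fold changes between −0.06 and −0.01 and did not pass.

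The α subunits form the outer rings of the core, whose tails gate the entry of substrates. Of 7, Psma3 and Psma6 passed as higher and Psma1 and Psma7 as lower. Psma3 was at 55.3 and 54.0 CPM in siScramble-treated and at 79.9 and 84.7 CPM in siTbk1-treated cells, with a wide gap between the groups (log2 fold change 0.59, standard error 0.059, Benjamini-Hochberg adjusted p = 1.5e-05 in the edgeR quasi-likelihood test). Psma6 was at 129 and 124 CPM in the controls and at 146 and 158 CPM in siTbk1-treated cells (log2 fold change 0.26, standard error 0.057, adjusted p = 0.0024). Both genes were higher in each siTbk1 sample than in each control, and both have split reads. Their positions on chromosome 6 lie inside the listed span of LOC108348062, from 10151729 to 108756131 on the same strand, which was at 234 and 239 CPM in the controls and at 224 and 230.0 CPM in siTbk1-treated cells (log2 fold change −0.06) and did not pass. What LOC108348062 encodes is not given in the sources used here. Psma7 was at 237 and 232 CPM in the controls and at 214 and 196 CPM in siTbk1-treated cells (log2 fold change −0.19, adjusted p = 0.014). Psma1 was at 359.9 and 340.1 CPM in the controls and at 303 and 312 CPM in siTbk1-treated cells (log2 fold change −0.19, adjusted p = 0.011). For both of them the siTbk1 samples lay below the controls, and neither has split reads. Psma2, Psma4 and Psma5 had log2 fold changes of −0.03, 0.13 and 0.05 and did not pass.

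**Figure D2:**
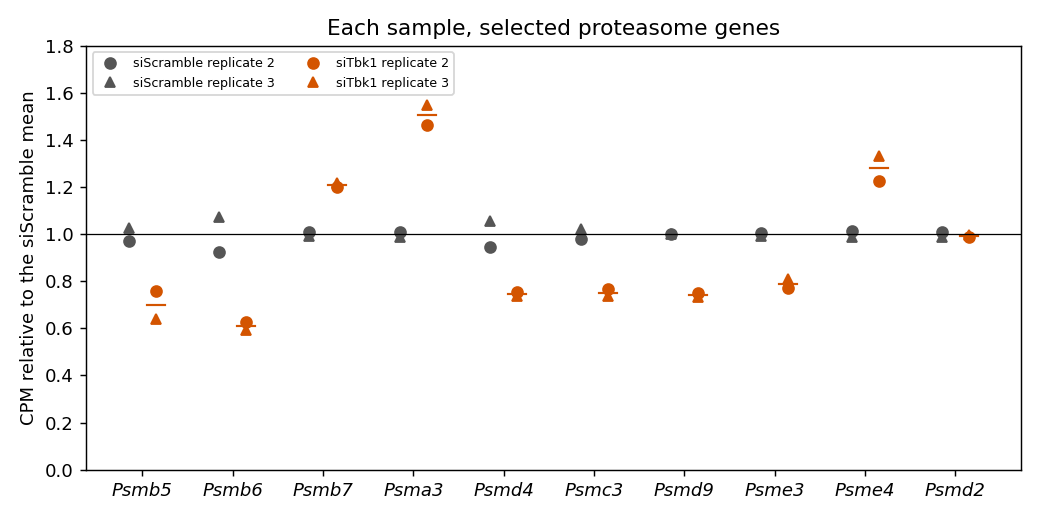
CPM of 10 proteasome genes in each of the 4 samples, divided by the mean of the siScramble samples (circles: replicate 2, triangles: replicate 3, grey: siScramble, orange: siTbk1, short lines: siTbk1 mean). The genes were picked by hand: the catalytic subunits, Psma3, passing genes of the base, its chaperones and the activators, and Psmd2, which did not pass. Lid subunits and core chaperones, such as Psmd3 and Psmg3, are not shown. The siTbk1 samples of Psmb5 and Psmb6 lie below the controls while those of Psmb7, Psma3 and Psme4 lie above.

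In the base of the regulatory particle, the ATPases Psmc1 to Psmc6 form the unfolding ring. Psmc3 was at 199 and 207 CPM in siScramble-treated and at 156 and 149 CPM in siTbk1-treated cells, the largest change of the 6 (log2 fold change −0.41, standard error 0.053, Benjamini-Hochberg adjusted p = 7.8e-05 in the edgeR quasi-likelihood test). Psmc4 was at 202 and 199.96 CPM in the controls and at 174 and 166 CPM in siTbk1-treated cells (log2 fold change −0.24, adjusted p = 0.0022). These ATPases were lower in both siTbk1 samples. Psmc6 was at 82.0 and 74.9 CPM in the controls and at 88.6 and 92.8 CPM in siTbk1-treated cells, where it was higher (log2 fold change 0.21, adjusted p = 0.015). Psmc1, Psmc2 and Psmc5 had log2 fold changes of 0.03, −0.02 and −0.10 and did not pass. None of the 6 ATPase genes has split reads.

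The other base subunits are Psmd1 and Psmd2, large scaffold proteins that bind ubiquitin-like shuttles and enzymes, and Psmd4, a receptor for ubiquitin chains. Psmd4 was at 103 and 115 CPM in siScramble-treated and at 82.2 and 80.4 CPM in siTbk1-treated cells (log2 fold change −0.42, standard error 0.063, Benjamini-Hochberg adjusted p = 0.00019 in the edgeR quasi-likelihood test). Psmd1 was at 285 and 278 CPM in the controls and at 324 and 339 CPM in siTbk1-treated cells (log2 fold change 0.23, standard error 0.051, adjusted p = 0.0025), and it has split reads. The groups did not overlap for either gene, in opposite directions. Psmd2 was at 627 and 614 CPM in the controls and at 613 and 618 CPM in siTbk1-treated cells, so that the groups overlapped (log2 fold change −0.01).

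The lid subunits hold the deubiquitinating site and the frame around it. Of 8, Psmd3 passed as lower and Psmd6, Psmd11 and Psmd14 as higher. Psmd3, a scaffold subunit of the lid, was at 223 and 235 CPM in siScramble-treated and at 184 and 169 CPM in siTbk1-treated cells (log2 fold change −0.38, standard error 0.058, Benjamini-Hochberg adjusted p = 0.00024 in the edgeR quasi-likelihood test). Psmd6 was at 88.8 CPM in both controls and at 99.0 and 107 CPM in siTbk1-treated cells (log2 fold change 0.21, adjusted p = 0.0096). Psmd14, the deubiquitinase, was at 92.5 and 84.3 CPM in the controls and at 97.7 and 103 CPM in siTbk1-treated cells (log2 fold change 0.18, adjusted p = 0.031). The gap between the groups was wide for Psmd3 and narrow for Psmd14. Psmd11 had a log2 fold change of 0.16 and has split reads. Psmd7, Psmd8, Psmd12 and Psmd13 had log2 fold changes between −0.12 and 0.14 and did not pass.

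Several calls were lost when a sample was left out. Psmd11 did not pass without any 1 of the 4 samples, although its log2 fold change stayed between 0.15 and 0.17. Psmd14 did not pass without siScramble replicate 3 or without siTbk1 replicate 3, nor did Psmc6. Psmd6 did not pass without siTbk1 replicate 3. Without siTbk1 replicate 3, 6 proteasome genes passed as higher, namely Psma3, Psma6, Psmb7, Psmd1, Psme1 and Psme4, and 10 as lower, with Psma7 and Psmb3 lost. Psma1 did not pass without siScramble replicate 2, and Psme1 without that sample or without siTbk1 replicate 2.

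Assembly chaperones help to build both particles and leave the finished complex. Psmd9, a chaperone of the base, was at 51.4 and 51.3 CPM in siScramble-treated and at 38.5 and 37.8 CPM in siTbk1-treated cells, with little spread within each group (log2 fold change −0.43, standard error 0.060, Benjamini-Hochberg adjusted p = 0.00013 in the edgeR quasi-likelihood test). Psmd5 and Psmd10, the other base chaperones, had log2 fold changes of 0.14 and 0.01 and did not pass. Psmd10 was the gene with the fewest counts, 195 to 218 per sample, and its standard error was 0.14. Psmg3, a chaperone of the α ring, was at 122 and 115 CPM in the controls and at 99.7 and 88.4 CPM in siTbk1-treated cells, where it was lower in both samples (log2 fold change −0.33, standard error 0.065, adjusted p = 0.0013). Psmg4, which pairs with Psmg3, had a log2 fold change of −0.24 and did not pass (adjusted p = 0.12), with 6.04 to 8.28 CPM and groups that did not overlap. Psmg1 and Psmg2, which pair with each other, had log2 fold changes of 0.11 and 0.03 and did not pass.

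The activators are alternative caps that open the core without ATP. Psme3, the subunit of a nuclear cap, was at 175 and 173 CPM in siScramble-treated and at 134 and 141 CPM in siTbk1-treated cells (log2 fold change −0.34, standard error 0.053, Benjamini-Hochberg adjusted p = 0.00025 in the edgeR quasi-likelihood test). Psme4, a large single-chain nuclear cap linked to histone degradation, was at 406 and 397 CPM in the controls and at 493 and 536 CPM in siTbk1-treated cells (log2 fold change 0.36, standard error 0.055, adjusted p = 0.00025). The ratio of Psme3 to Psme4 counts was 0.431 and 0.435 in the controls and 0.272 and 0.262 in siTbk1-treated cells. This restates the opposite changes of these genes and is no separate result. Psme1, one of the subunits of the interferon-inducible cap, was at 41.9 and 43.6 CPM in the controls and at 51.5 and 47.1 CPM in siTbk1-treated cells (log2 fold change 0.21, adjusted p = 0.020), whereas its partner Psme2 had a log2 fold change of 0.10 with overlapping groups and did not pass. Psme1, Psme3 and Psme4 have split reads. The regulator Psmf1, which binds the core, had a log2 fold change of −0.07 and did not pass.

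Psmc3ip, which shares only the name, was at 12.7 and 13.0 CPM in siScramble-treated and at 12.2 and 11.8 CPM in siTbk1-treated cells and did not pass (log2 fold change −0.10, Benjamini-Hochberg adjusted p = 0.38 in the edgeR quasi-likelihood test). Its listed span overlaps that of Mlx on the opposite strand, which was at 153 and 154 CPM in the controls and at 194 and 207 CPM in siTbk1-treated cells.

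The core and regulatory particles had medians close to each other and to that of all genes. The median log2 fold change was −0.027 over the 14 core genes (range −0.71 to 0.59). Of these, 3 passed as higher (21.4%) and 5 as lower (35.7%). It was −0.022 over the 21 genes with Psmc and Psmd names (range −0.43 to 0.23), with 5 higher and 5 lower (23.8% each). Leaving out Psmc3ip and the chaperones, the 17 subunits of the lid and base had a median of −0.022, with 5 higher (29.4%) and 4 lower (23.5%). Over all genes tested, 24.4% passed as higher and 24.8% as lower. By family, the medians were 0.05 for Psma, −0.06 for Psmb, −0.10 for Psmc and 0.0017 for Psmd. Since the genes of a family are not replicates, no test was run on these medians.

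The balance of the particles was also taken in each sample. The mean log2 CPM over the core genes was 7.27 and 7.26 in siScramble-treated and 7.22 in both siTbk1-treated samples, and that over the regulatory genes was 6.96 and 6.94 in the controls and 6.89 and 6.90 in siTbk1-treated cells. Both means were slightly lower in siTbk1-treated cells. Each gene has the same weight in them, Psmb6 (log2 fold change −0.71) included. The summed CPM of the core genes was 2726 and 2671 in the controls and 2649 and 2681 in siTbk1-treated cells, with overlap of the groups. That of the regulatory genes was 3720 and 3651 in the controls and 3603 and 3613 in siTbk1-treated cells, without overlap. The difference of the mean log2 CPM, core minus regulatory, was 0.31 and 0.32 in the controls and 0.33 and 0.31 in siTbk1-treated cells, so that the groups overlapped. The summed counts of core genes relative to regulatory genes gave ratios of 0.733 and 0.732 in the controls and 0.735 and 0.742 in siTbk1-treated cells. The core sums and these ratios leave out LOC100360846, which holds most counts of the Psmb6 pair. It was at 178 and 179.6 CPM in the controls and at 154 and 137 CPM in siTbk1-treated cells. The overlap of the core sums and the ratios thus depend on how the reads of the pair are divided. Sums with LOC100360846 were not taken. Together the 44 genes held 0.746% and 0.737% of all counts in the controls and 0.710% and 0.715% in siTbk1-treated cells. Unlike the CPM values, these shares are without the TMM factors. The factors were 1.01 and 1.02 in the controls and 0.985 and 0.982 in siTbk1-treated cells, so most of the fall in the shares is a matter of scaling.

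**Figure D3:**
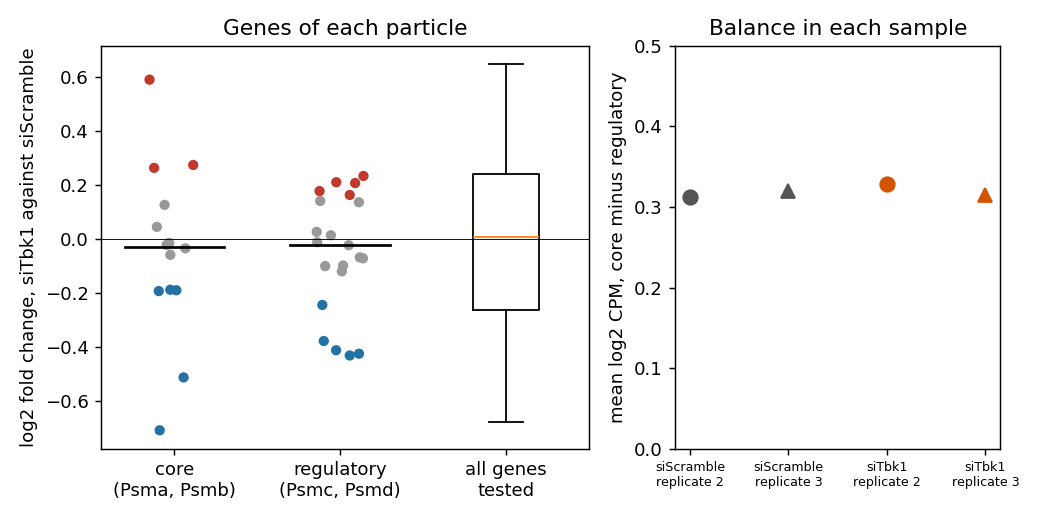
Left: log2 fold change of each core and each regulatory gene (red: passed as higher, blue: passed as lower, grey: did not pass, line: median) beside all genes tested (box: quartiles and median, whiskers: percentiles 5 and 95). Right: mean log2 CPM of core minus regulatory genes in each sample, which lies between 0.31 and 0.33 in all 4 samples.

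The direction of change went with the genomic span of the genes, introns included. Among the 11 longest genes, from 21.2 to 103 kb, 8 passed as higher and 0 as lower, with a median log2 fold change of 0.21. Of these higher genes, Psma3, Psma6, Psmb7, Psmd1, Psmd11 and Psme4 have split reads, and Psmc6 and Psmd14 do not. Over all genes tested, whatever their span, 24.4% passed as higher and 24.8% as lower, and the shares among all genes of similar span were not taken. The 3 longest, Psme4, Psmd14 and Psmb7, span 103, 95.0 and 81.0 kb. Among the 11 shortest, from 2.25 to 6.36 kb, 1 passed as higher (Psme1) and 5 as lower (Psmb5, Psmb6, Psmc3, Psmg3 and Psma7), with a median of −0.10. The median span was 38.8 kb for the higher, 7.44 kb for the lower and 10.5 kb for the genes that did not pass. Across the 44 genes, log2 fold change and log10 span were correlated with Pearson's r of 0.56 and Spearman's rho of 0.56, and over the 32 genes without split reads the values were 0.38 and 0.40. Over all genes tested the correlations were 0.18 and 0.21. These values are across genes of the same 4 libraries, and genes are not independent replicates.

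When the trend of log2 CPM along span over all genes was removed from each library, the core median became 0.03 and the regulatory median 0.03. Psma1, Psma7, Psmb3, Psmd1, Psmd11 and Psmd14 then no longer passed, Psma4, Psmd5, Psmd12 and Psmg1 passed as higher, and the correlations across the 44 genes were 0.34 (Pearson) and 0.33 (Spearman). Psmb5 and Psmb6 still passed as lower. Psmb7 still passed as higher, with its log2 fold change down from 0.27 to 0.16, and with a replicate block added to the correction Psmb7 (0.16) and Psmc4 (−0.15) did not pass (adjusted p = 0.087 and 0.12 in the edgeR quasi-likelihood test). No gene that had passed changed sign. The part of span in these results was not tested beyond this, and GC content was not examined.

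**Figure D4:**
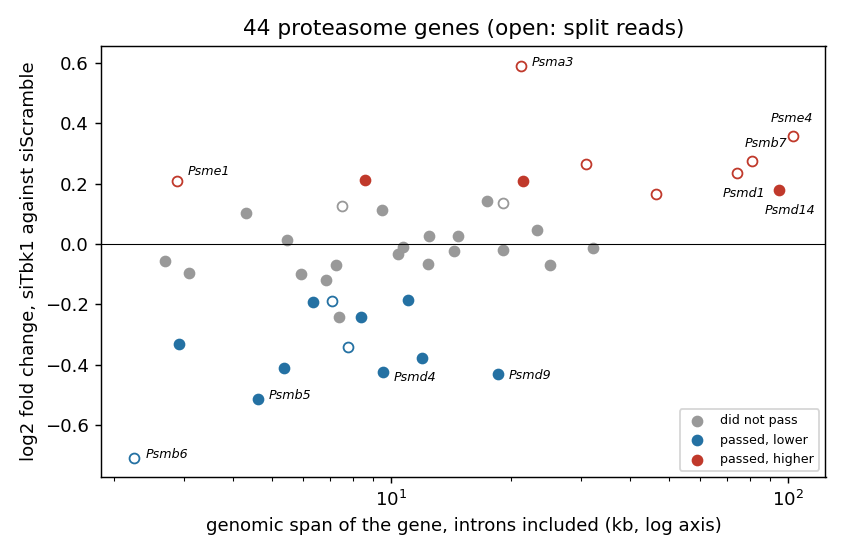
Log2 fold change (siTbk1 against siScramble) against genomic span in kb (log axis) for the 44 proteasome genes, with genes that passed as higher in red, as lower in blue, the rest in grey and open circles for split reads. Genes above 20.1 kb, the median span of all genes tested, include 8 of the 10 higher genes and none of the 12 lower ones. The shares that passed among all genes above this span were not taken.

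Around the proteasome, 8 further subunits and associated factors were tested, of which 4 passed as higher (50.0%) and 3 as lower (37.5%), beside 24.4% and 24.8% of all genes tested. Adrm1, the second ubiquitin receptor of the regulatory particle, was at 88.4 and 89.3 CPM in siScramble-treated and at 71.5 and 66.5 CPM in siTbk1-treated cells, lower in both samples as Psmd4 was (log2 fold change −0.36, standard error 0.059, Benjamini-Hochberg adjusted p = 0.00034 in the edgeR quasi-likelihood test). Pomp, which assembles the β ring, was at 20.2 and 20.3 CPM in the controls and at 16.8 and 16.7 CPM in siTbk1-treated cells (log2 fold change −0.27, adjusted p = 0.0098) and has split reads. Sem1, the small lid subunit, was at 137 and 128 CPM in the controls and at 123 and 111 CPM in siTbk1-treated cells (log2 fold change −0.18, adjusted p = 0.032). On the other side, Ube3c, a ubiquitin ligase that works on the proteasome, was at 300.4 and 285 CPM in the controls and at 383 and 389 CPM in siTbk1-treated cells (log2 fold change 0.40, adjusted p = 8.0e-05). Akirin2, which brings proteasomes into the nucleus, was at 68.3 and 60.8 CPM in the controls and at 78.3 and 78.4 CPM in siTbk1-treated cells (log2 fold change 0.28, adjusted p = 0.0038).

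Among genes that supply ubiquitin, Ubb, a polyubiquitin gene, was at 1119.7 and 1218 CPM in siScramble-treated and at 889 and 851 CPM in siTbk1-treated cells (log2 fold change −0.43, standard error 0.057, Benjamini-Hochberg adjusted p = 9.5e-05 in the edgeR quasi-likelihood test). It was lower in each siTbk1 sample than in each control. Uba1, the main ubiquitin-activating enzyme, also passed as lower, with a log2 fold change of −0.20. Uba6, the second activating enzyme, was at 63.1 and 57.1 CPM in the controls and at 84.3 and 83.4 CPM in siTbk1-treated cells, where it was higher (log2 fold change 0.48, adjusted p = 8.5e-05). Rps27a, a ribosomal protein gene whose product is made fused to ubiquitin, had a log2 fold change of 0.09 and did not pass.

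Among shuttle and receptor factors that carry substrates to the proteasome, Ddi2 (log2 fold change 0.32) and Zfand5 (0.27) passed as higher and Zfand2b (−0.58) passed as lower. Of 14 genes listed around Nfe2l1 and the Cdc48 segregase, 6 passed as higher (42.9%) and 5 as lower (35.7%), with a median of 0.10. Over all genes tested, the shares were 24.4% and 24.8%. Beside genes for the activation of Nfe2l1, the list holds its DNA-binding partners and also Nfe2l2 and Keap1. Nfe2l2 passed as higher and Keap1 as lower (log2 fold changes 0.30 and −0.42). Nfe2l1 itself was at 174 and 179.9 CPM in siScramble-treated and at 158 and 155 CPM in siTbk1-treated cells (log2 fold change −0.17, standard error 0.052, Benjamini-Hochberg adjusted p = 0.015 in the edgeR quasi-likelihood test). Both siTbk1 samples lay below the controls. Ddi2, the protease that activates Nfe2l1, and Derl1, a channel factor of the endoplasmic reticulum, were the largest higher changes (0.32 for both). Mafg and Mafk, DNA-binding partners of Nfe2l1, were the largest lower ones (−0.59 and −0.42).

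The immunoproteasome subunits replace the catalytic ones after interferon, and all 3 were tested. Psmb8, which replaces Psmb5, was at 5.83 and 5.45 CPM in siScramble-treated and at 8.12 and 6.47 CPM in siTbk1-treated cells (log2 fold change 0.38, standard error 0.13, Benjamini-Hochberg adjusted p = 0.032 in the edgeR quasi-likelihood test) and has split reads. Psmb10, which replaces Psmb7, was at 33.0 and 34.4 CPM in the controls and at 29.996 and 25.6 CPM in siTbk1-treated cells (log2 fold change −0.28, adjusted p = 0.013). For both pairs the direction was opposite to that of the constitutive subunit. Psmb9, which replaces Psmb6, was at 3.79 and 3.66 CPM in the controls and at 4.29 and 4.19 CPM in siTbk1-treated cells and did not pass (log2 fold change 0.19).

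Of the 44 genes, 40 matched a RefSeq promoter by symbol. Psma7, Psmd6, Psmd12 and Psmd14 had no entry. The antioxidant response element core TGACNNNGC was found in 8 of the 40 promoters (20.0%), beside 14.8% of the 9690 promoters of tested genes and 12.2% of all 27457 promoters. The holders were Psma3, Psmd1 and Psme4 among the higher, Psmb5, Psmb6, Psmd3 and Psmd9 among the lower and Psmb2 among the genes that did not pass, so the motif stood on both sides. CCAAT was found in 50.0% of the 40, beside 37.7% of tested genes and 37.7% of all promoters. CCGGAAG was found in 37.5%, beside 17.7% and 9.22%. TATAAA was found in 10.0%, beside 6.24% and 14.3%. In 1 of the 40 promoters, matches of different motifs shared bases. A match to these letters is a description of the sequence and not a bound site.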

How the data were processed

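RNA sequencing data of 2 siScramble-treated and 2 siTbk1-treated samples of INS-1 832/13 cells were used. The table the authors deposited holds estimated counts for 15172 genes that are not scaled between libraries. The submitters' processing notes name STAR 2.6.1d, Partek and the build rn6. The settings of the counting step are not given in the sources used here. A gene was taken to have split reads where its deposited estimated count differed from every whole number by over 0.01 in at least 1 library (25.8% of the listed genes). Listed genes have at least 10 counts summed over the 4 samples.

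Estimated counts were rounded to whole numbers. Low genes were removed with filterByExpr of edgeR 4.0.16 (minimum count 10) and 13953 genes were kept, with 1219 removed. TMM factors, used to scale library sizes, lay between 0.982 and 1.02. The groups were compared with edgeR's quasi-likelihood test, with treatment in the model alone, and Benjamini-Hochberg adjustment ran over all genes tested. A gene passed at an adjusted p-value under 0.05, and the limit on fold change was 1.5. Per-sample means used log2 CPM with a prior count of 2. The standard error is the log2 fold change divided by the square root of F. The biological coefficient of variation was 0.0482, and with 2 samples per group the spread was estimated mostly from all genes together. Computations used R 4.3.3, limma 3.58.1, DESeq2 1.42.0, Python 3.11.15 and matplotlib 3.10.9, and the tests were tested on simulated data.

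Proteasome genes were chosen by name, and roles and the other lists were written by hand. The members and lists were chosen with earlier results of these data known. Values in every sample are given for the catalytic subunits, for up to 2 passing genes with the largest changes in each direction per role, for genes past the fold limit and for genes that share only the name. In the other lists, Nfe2l1, Adrm1, Sem1, Pomp, the immunoproteasome genes and the 2 largest passing changes in each direction are named. Uba1, Rps27a and Psmd11 were named after their values were seen, and some genes that this rule takes are not reported here. No lengths of transcripts were used, so levels are not compared between genes. Whether replicate numbers pair the samples was checked from the deviations of same-numbered samples. Alternatives were a replicate block, DESeq2, limma-voom, other scalings and filters, glmTreat, a correction for gene length (loess span 0.5 along log10 genomic span), and leaving out each sample, genes with split reads, or chaperones and genes that share only the name. The sum of Psmb6 and its copy was added after the data were seen.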

Additional observations from a re-analysis of the deposited data

How the results depend on the processing

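Signs of the proteasome genes that passed did not change under any alternative. Each group holds 2 samples, which bounds the precision of these values. Leaving out 1 sample gave 6 to 10 genes passing as higher and 10 to 13 as lower (beside 17.6% to 23.1% and 18.2% to 23.8% of all genes tested in the same settings), 0 to 1 past the fold limit as higher (0 without siScramble replicate 3 or siTbk1 replicate 3) and 1 to 2 as lower (Psmb5 joining Psmb6 without siTbk1 replicate 2), a core median between −0.056 and −0.021, a regulatory median between −0.069 and −0.016 and a core minus regulatory difference between −0.0052 and 0.030, where the value with all samples is −0.0051. Without genes that have split reads, 32 genes remained, of which 3 passed as higher and 9 as lower. Over all genes tested, those with split reads included, 24.4% passed as higher and 24.8% as lower. The core median was then −0.046, the regulatory median −0.069 and the difference between the particles 0.023. The number past the fold limit as higher was 0 with DESeq2, library size alone, DESeq2 size factors in edgeR, no filter, at least 10 counts in every sample and glmTreat, and the number as lower was 0 with glmTreat. The core median was −0.075 with library size alone, which moved the median of all genes to −0.040. With the correction for gene length, the core median was 0.028 (0.027 with the replicate block) and the regulatory median was 0.033 (0.034 with the block), and the cause was not tested beyond this correction.

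The same-numbered samples did not deviate together: their deviations from the group means had a correlation of 0.0041 over all genes and −0.24 over the proteasome genes. With the replicate block alone, 8 proteasome genes passed as higher and 12 as lower, Psmd11 and Psmd14 no longer passing. Over all genes tested, 22.2% passed as higher and 23.2% as lower in that setting.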
